A study of Mus musculus with 3 samples.

Results

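The genes described here encode the machinery that decides whether a cell dies by apoptosis: caspases, the Bcl2 family, inhibitors of apoptosis, receptors of the tumour necrosis factor family and their adaptors. They were taken by symbol, by a rule that uses no measured value. A probe set belonged if it named 1 gene whose symbol begins with Casp and a digit, Bcl2, Birc and a digit, Tnfrsf, or Traf and a digit, or is Bak1, Bad, Bid, Bik, Mcl1, Fas, Fasl, Fadd, Apaf1 or Cflar. Further genes sought by name that the probe annotation used does not name are not analysed here. This gave 66 probe sets for 46 genes, beside 10833 single-gene probe sets for 8251 genes on the whole array. Of the 66 probe sets, 1, for Fas, is of the array's control type and was kept apart from the gene values.

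RNA came from medial edge epithelium, the cell layer at the tip of each palatal shelf, taken at embryonic day 13.5 from mouse embryos of the CF-1 stock. All 3 samples were freed with the enzyme Dispase II, amplified and hybridized to 1-colour Affymetrix arrays. The groups were unfused epithelium at 0 h, fused epithelium after the shelves had been held together in culture for 12 h, and fused epithelium at 24 h, described as undergoing transformation from epithelium to mesenchyme. The labels give no culture for the 0 h tissue, so fusion and time in culture cannot be told apart. Each time point had 1 array, so differences come without replicates, errors or tests. The labels do not state the number of embryos per sample.

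When opposing palatal shelves meet, their edge epithelia merge into a midline seam that must disappear for the palate to become continuous. Death of seam cells, their conversion to mesenchyme and their migration have all been proposed as routes of its removal. In apoptosis, ligands of the tumour necrosis factor family engage receptors that recruit Fadd and Casp8, while stress signals act through the Bcl2 family on mitochondria. Anti-death members such as Bcl2 and Mcl1 restrain the pore formers, BH3-only members such as Bid and Bcl2l11 oppose that restraint, and released cytochrome c assembles Apaf1 and Casp9 into the apoptosome. Initiator caspases then cleave executioner caspases, and Birc proteins hold caspases or death signalling complexes in check. Most of these proteins are controlled by cleavage, binding or release, which an RNA measurement does not record.

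Values below are scaled signals, the deposited linear intensities after each array was brought to a common trimmed mean. The scale factors were 0.676 at 0 h, 1.09 at 12 h and 1.36 at 24 h. A signal of 13.5, the pooled 40th percentile, served as the floor, and values under it have no order. Where 1 array of a pair was at the floor, only a lower limit of the fold difference is known, and it is given as at least that fold. Where a gene has several probe sets, the brightest stands for it, and levels of different genes are not comparable on this scale. Above the floor lay 29 of the 46 genes at 0 h, 34 at 12 h and 33 at 24 h. Of all 8251 genes on the array, 5878, 5405 and 5742 were above it at these times. Of the 46, 25 were above it on all 3 arrays, 7 on 2 arrays, 7 on 1 and 7 on none. Those on none were Bik, Casp1, Casp12, Fasl, Tnfrsf4, Tnfrsf9 and Traf1. For them the arrays give no direction.

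Quality measures and cell markers also differed between the arrays. Control probe sets gave 3' to 5' signal ratios of 0.828 for Gapdh and 1.02 for Actb at 0 h, 14.9 and 11.9 at 12 h, and 12.6 and 2.97 at 24 h. Of 12 epithelial markers, 8 were above the floor on all 3 arrays, among them Cdh1, Epcam, Trp63 and Dsp, and the keratins Krt5, Krt14 and Krt15 were under it throughout. Signals of the 12 summed to 862 before culture, 1790 on the 12 h array and 1670 on the 24 h array. By the 2-fold rule 4 were higher and 1 lower at 12 h than at 0 h, and 4 higher and 1 lower at 24 h than at 0 h. Dsp, Epcam, Trp63 and Pkp1 were those higher at 12 h. Cldn4 went from 206 at 0 h to the floor at 12 h, Krt18 from 63.9 to 32.2 and Krt19 from 70.7 to 40.1. Palate mesenchyme markers summed to 4410, 6740 and 7980 in this labelled epithelium, with 10 of 12 above the floor on all arrays. Twist1, Col1a1, Col1a2 and Col3a1 carried that sum: the other 8 summed to 2690, 662 and 1670, and by the 2-fold rule 4 of the 12 were higher and 6 lower at 12 h than at 0 h, and 3 higher and 4 lower at 24 h than at 0 h. Macrophage and leukocyte markers summed to 544, 501 and 889, and without Cd14 and Laptm5 to 407, 298 and 399; 2 were higher and 4 lower at 12 h than at 0 h, and 3 higher and 1 lower at 24 h than at 0 h. Of these markers 9 of 22 were above the floor throughout, while the defining markers Ptprc, Adgre1 and Itgam were under it on every array. Erythroid markers summed to 6460, 1580 and 1500, endothelial markers to 411, 654 and 652. The part of these differences in the results below was not tested, and in such samples fewer cells of a type and less RNA per cell cannot be told apart.

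The 3 comparisons set fused tissue against unfused tissue, transforming against newly fused tissue, and transforming against unfused tissue. At 12 h, 6 of 37 death pathway genes with a ratio exceeded their 0 h signal by 2-fold or more and 10 fell short of it by as much. Over all 6379 genes with a ratio, 17.7% were higher and 27.3% lower by this rule, and the members' shares of 16.2% and 27.0% were close to these. The members' median log2 ratio was 0.12 and that of all genes -0.21. At 24 h, 7 of 37 members were higher than at 12 h by this rule and 5 lower, where 18.8% and 12.0% of 6141 genes were. Member shares were 18.9% and 13.5%, and the medians 0.15 for the members and 0.17 for all genes. Between 24 h and 0 h, 6 of 36 members were higher and 4 lower, against 14.5% and 17.7% of 6392 genes. The corresponding shares of members were 16.7% and 11.1%, with medians of -0.10 and -0.08. As a set these genes stood near the background of the arrays, with the widest gap in the share lower at 24 h than at 0 h. The account below concerns single roles and genes.

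Both the split and its balance rested on how arrays were scaled. With signals as deposited, 4 members were higher and 13 lower at 12 h than at 0 h, where 9.06% and 44.8% of all genes were. With arrays centred on the median the counts were 9 and 5, beside 26.2% and 18.4% of all genes, and with quantile normalization 8 and 5, beside 21.9% and 20.9%. From 12 h to 24 h the same 3 scalings gave 2 higher and 7 lower, 3 and 7, and 3 and 7, where between 12.0% and 14.3% of all genes were higher and between 13.8% and 18.5% lower. From 0 h to 24 h signals as deposited gave 1 higher and 18 lower, beside 4.50% and 49.3% of all genes. The shares of all genes moved with the scaling as the members' counts did. The only gauge of spread is how far probe sets of 1 gene disagree within the same pair of arrays. Over all genes with several measured sets, the SD of the log2 ratio about the gene's mean was 1.24, 0.82 and 1.07 in the 3 comparisons. It holds no variation between arrays, samples or embryos, which cannot be measured here. A 2-fold difference is a log2 ratio of 1, so a 2-fold difference is under 1 SD in both comparisons with 0 h. In what follows, rose and fell refer to the 2-fold rule of size, not to a test.

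**Figure D1:**
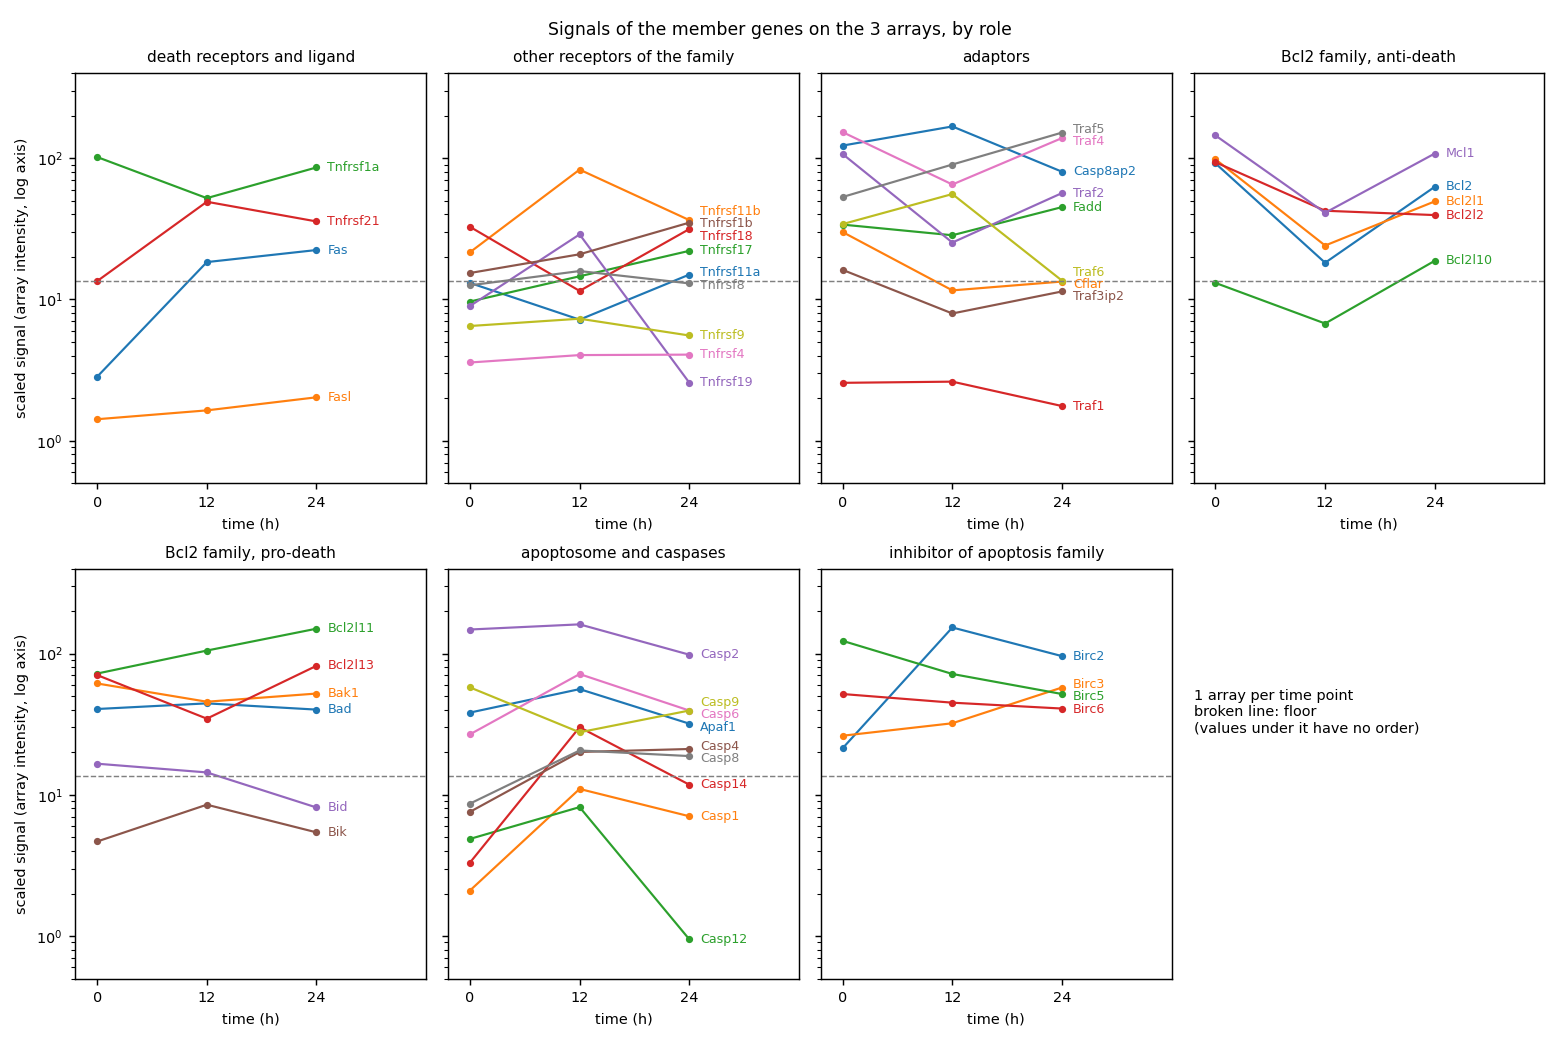
Scaled signal (log axis) against time for the 46 genes, in 1 panel per role, with 1 line per gene and 1 array per time point; the broken line is the floor of 13.5. Bcl2, Bcl2l1 and Mcl1 form a trough at 12 h in the anti-death panel, while Birc2 goes from 21.4 to 153 in the panel of the inhibitor of apoptosis family.

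Among death receptors, the clearest difference was that of Tnfrsf21, a receptor with a death domain. Its signal was 13.5 at 0 h, at the floor, 49.2 at 12 h and 35.7 at 24 h, which puts the 12 h signal at least 3.64-fold and the 24 h signal at least 2.64-fold above that of unfused tissue. Raising the floor to the 60th percentile left log2 ratios of 0.49 and 0.02, and with signals as deposited the 24 h ratio was 0.40. Fas, the receptor of Fas ligand, was at the floor before culture and read 18.4 at 12 h and 22.4 at 24 h. These were 1.36-fold and 1.65-fold above the floor, short of the 2-fold rule. They depend on the floor: with it at the 20th percentile the log2 ratios of Fas were 2.14 and 2.42, past 2-fold. The control-type probe set of Fas was at the floor at 0 h too and read 34.3 and 45.0, giving lower bounds of 1.34 and 1.73 on the log2 scale. Both Fas probe sets therefore were low before culture and above the floor on both cultured arrays. Fasl, its ligand, was under the floor on all 3 arrays. Tnfrsf1a, the main receptor for tumour necrosis factor, had signals of 102, 52.2 and 86.1, a log2 ratio of -0.96 at 12 h, and its other probe set gave 0.11.

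Receptors outside the death domain group went both ways. Tnfrsf11b encodes osteoprotegerin, a secreted decoy for the ligand Tnfsf11. Its signal went from 21.6 at 0 h to 83.1 at 12 h, 3.84-fold higher, and back to 36.5 at 24 h, 2.28-fold lower than at 12 h. Both differences passed 2-fold under all 8 alternative settings. Tnfsf11 itself, which is not a member, was at the floor before culture and read 43.6 and 36.2 later, at least 3.23-fold and 2.68-fold higher, and the cell-surface receptor Tnfrsf11a lay at or near the floor on every array. Tnfrsf19, a receptor of embryonic epithelia, was above the floor on the 12 h array alone, with a signal of 28.9, at least 2.14-fold above the other arrays, or 0.99 on the log2 scale at 12 h with signals as deposited. Tnfrsf18, known from T cells, had the reverse course of 32.7 at 0 h, the floor at 12 h and 31.5 at 24 h, a fall of at least 2.41-fold followed by a rise of at least 2.33-fold; with signals as deposited the rise was 0.80 on the log2 scale, short of 2-fold. Tnfrsf1b, the second receptor for tumour necrosis factor, read 15.4, 20.9 and 35.0, and was 2.28-fold higher at 24 h than at 0 h, or a log2 ratio of 0.18 with signals as deposited. Tnfrsf8 and Tnfrsf17 stayed close to the floor, with highest signals of 15.9 and 22.1.

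The adaptors that connect these receptors to caspases and to NF-kappaB, a transcription factor of survival and inflammation, included Traf2, Traf4 and Cflar, all lower at 12 h. At 12 h, 3 of 8 adaptors with a ratio were lower than at 0 h by 2-fold or more and 0 were higher, where 27.3% and 17.7% of all genes were. Traf2, which couples tumour necrosis factor receptors to Birc2 and Birc3, had signals of 107, 25.3 and 56.7. It was 4.21-fold lower at 12 h, under all 8 alternatives past 2-fold, and 2.24-fold higher at 24 h than at 12 h. Traf4, an adaptor prominent in epithelia and embryos, went from 153 to 65.2 and 139, 2.35-fold lower and then 2.12-fold higher. The other probe set of Traf4, at 96.2, 22.9 and 59.4, gave log2 ratios of -2.07 and 1.37, so both sets fell and recovered. With median centring or quantile normalization the first set's fall was -0.78 or -0.95, and the recoveries of Traf2 and Traf4 were between 0.77 and 0.89 with deposited, centred or quantile-normalized signals. With the higher floor that of Traf2 was 0.69. Cflar, an inhibitor of Casp8 activation, was above the floor at 0 h alone, with a signal of 30.0, and lower by at least 2.22-fold on both later arrays; centring and quantile normalization brought these bounds to between -0.94 and -0.92.

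Other adaptors differed from this course. Traf5, which acts beside Traf2 in NF-kappaB signalling, read 53.2, 90.3 and 152 and was 2.86-fold higher at 24 h than at 0 h, or 0.51 on the log2 scale with signals as deposited. Traf6, which serves interleukin-1, Toll-like and Tnfrsf11a receptors, went from 34.2 to 55.8 and then to 13.6, 4.12-fold lower at 24 h than at 12 h. A second probe set of Traf6 was at the floor at 0 h and read 26.6 and 23.3, with a log2 ratio of -0.19 in that comparison, so the fall belongs to 1 probe set. It was -0.74 as a mean over the sets, 1 of them under the floor throughout, and -0.67 with the higher floor. Casp8ap2, a nuclear protein first described as a partner of Casp8, was at 123, 168 and 80.3, 2.09-fold lower at 24 h than at 12 h. As a mean over its sets the log2 ratio was -0.53, but its other set was under the floor on all 3 arrays. Fadd, the adaptor that joins Fas to Casp8, stayed within 2-fold at 33.9, 28.5 and 45.1, and the sign of its ratios with 0 h turned with the scaling. Traf3ip2, an adaptor of interleukin-17 receptors, was above the floor at 0 h alone, with a signal of 16.2.

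Anti-death members of the Bcl2 family fell together at 12 h. All 4 with a ratio at 12 h were lower than at 0 h by 2-fold or more, where 27.3% of all genes were; their median log2 ratio was -1.92 and that of all genes -0.21. Mcl1, a short-lived guard of the mitochondrial membrane, read 145 at 0 h, 41.1 at 12 h and 108 at 24 h, a fall of 3.52-fold and a rise of 2.63-fold. Bcl2l1, the gene of Bcl-xL, went from 98.3 to 24.1 and 49.5, 4.08-fold lower and then 2.05-fold higher, and its log2 ratio for 24 h over 0 h was -0.99. Bcl2, the founding member, was at 92.0, 18.2 and 62.8, 5.05-fold lower and then 3.45-fold higher. Bcl2l2, the gene of Bcl-w, went from 93.7 to 42.5 and 39.6, with no recovery, and was 2.20-fold and 2.37-fold lower than at 0 h. Bcl2l10 was above the floor at 24 h alone by its brightest set, at 18.8, and at 0 h alone by its other set, at 17.4.

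The falls of Bcl2, Bcl2l1 and Mcl1 at 12 h passed 2-fold under all 8 alternatives, and that of Bcl2l2 was -0.69 after centring and -0.71 after quantile normalization. Of the later rises, that of Mcl1 did so too, while the rise of Bcl2l1 was between 0.49 and 0.75 under 5 alternatives. Probe sets disagreed for Bcl2. A second set, at 62.3, 27.8 and 16.5, was lower at 12 h by a log2 ratio of -1.16 and lower again at 24 h, by -0.75. Another, at 20.5, 28.0 and 25.9, had ratios of 0.45 and -0.11. The rise of Bcl2 at 24 h thus appeared with its brightest set alone and was 0.31 as a mean over the sets and 0.84 with the higher floor. The other set of Bcl2l1 was under the floor throughout, and Mcl1 and Bcl2l2 have 1 set each.

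Promoter sequence is shown for Mcl1 and Bcl2l1, which were among the anti-death genes that fell at 12 h, and below for 2 members of the inhibitor of apoptosis family. Each is the 250 bases before a RefSeq transcription start in build GRCm38.p6, 5′ to 3′ on the gene's strand. Windows were found for 42 of the 46 genes. Capitals mark the kappaB letters, GGG, any 2 bases and then TTTCC, read on both strands, and Bcl2l1 is given at the 1 of its 3 listed starts that holds them. These letters occur in 1.41% of 32851 windows of this length and in those of 5 member genes, Bcl2l1, Birc5, Casp4, Mcl1 and Tnfrsf9. The percentage counts single windows, whereas a gene counts if any of its windows holds the letters, so the 2 cannot be compared directly.
Mcl1, chr3:95658471-95658720, plus strand: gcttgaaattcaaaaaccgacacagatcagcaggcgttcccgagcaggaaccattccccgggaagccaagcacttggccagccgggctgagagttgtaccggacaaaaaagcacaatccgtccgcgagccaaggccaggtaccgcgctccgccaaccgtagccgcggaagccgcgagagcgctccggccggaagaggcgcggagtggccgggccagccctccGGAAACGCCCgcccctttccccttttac
Bcl2l1, chr2:152830718-152830967, minus strand: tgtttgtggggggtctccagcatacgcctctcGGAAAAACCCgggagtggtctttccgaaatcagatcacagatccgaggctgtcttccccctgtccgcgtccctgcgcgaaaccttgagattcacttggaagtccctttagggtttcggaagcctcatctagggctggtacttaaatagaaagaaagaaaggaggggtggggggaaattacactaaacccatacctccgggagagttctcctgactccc
In Mcl1 the letters span bases 28 to 19 before the start and overlap a GC box, GGGCGG, at bases 20 to 15. In Bcl2l1 they span bases 218 to 209. Bcl2 and Bcl2l2, which fell at 12 h too, have no window with these letters, so the letters were not shared by the anti-death genes that fell. A match of letters describes the sequence and is no evidence of binding. The set was chosen after the values were known.

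Pro-death members of the Bcl2 family varied less at 12 h than the anti-death members: 1 of 5 with a ratio was lower by 2-fold or more and 0 were higher, where 27.3% and 17.7% of all genes were, and their median was -0.20, close to the -0.21 of all genes. The difference between these roles was not tested. It depends on the probe set of Bad, which counts as flat here, while its other set was lower by a bound of -2.46 on the log2 scale. The pore former Bak1 was at 61.4, 45.6 and 52.1, within 2-fold throughout. Bcl2l11, the BH3-only protein Bim, read 72.2, 105 and 150 and was 2.08-fold higher at 24 h than at 0 h. Its second measured probe set, at 25.6, 24.9 and 34.8, gave 0.44 in that comparison. With signals as deposited the ratio of Bcl2l11 was 0.05, and as a mean over its sets, 1 of them under the floor throughout, 0.50. Bcl2l13, a mitochondrial protein of the family, was at 70.4, 34.6 and 81.9, 2.04-fold lower at 12 h and 2.37-fold higher after it, and both ratios were short of 2-fold after median centring and quantile normalization, the second also with signals as deposited.

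Bad, a BH3-only protein held inactive by survival signalling, gave opposite readings. The set that stands for the gene, whose name carries a suffix letter, was flat at 40.5, 44.4 and 40.1. The other one went from 74.2 to the floor and then to 20.5, a bound of -2.46 on the log2 scale at 12 h and a ratio of -1.86 at 24 h against 0 h. Bid, cleaved by Casp8 to reach mitochondria, was near the floor at 16.6 and 14.4 and under it at 24 h. Bcl2l13 was thus the only pro-death member with a 2-fold fall at 12 h by the set that stands for its gene.

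**Figure D2:**
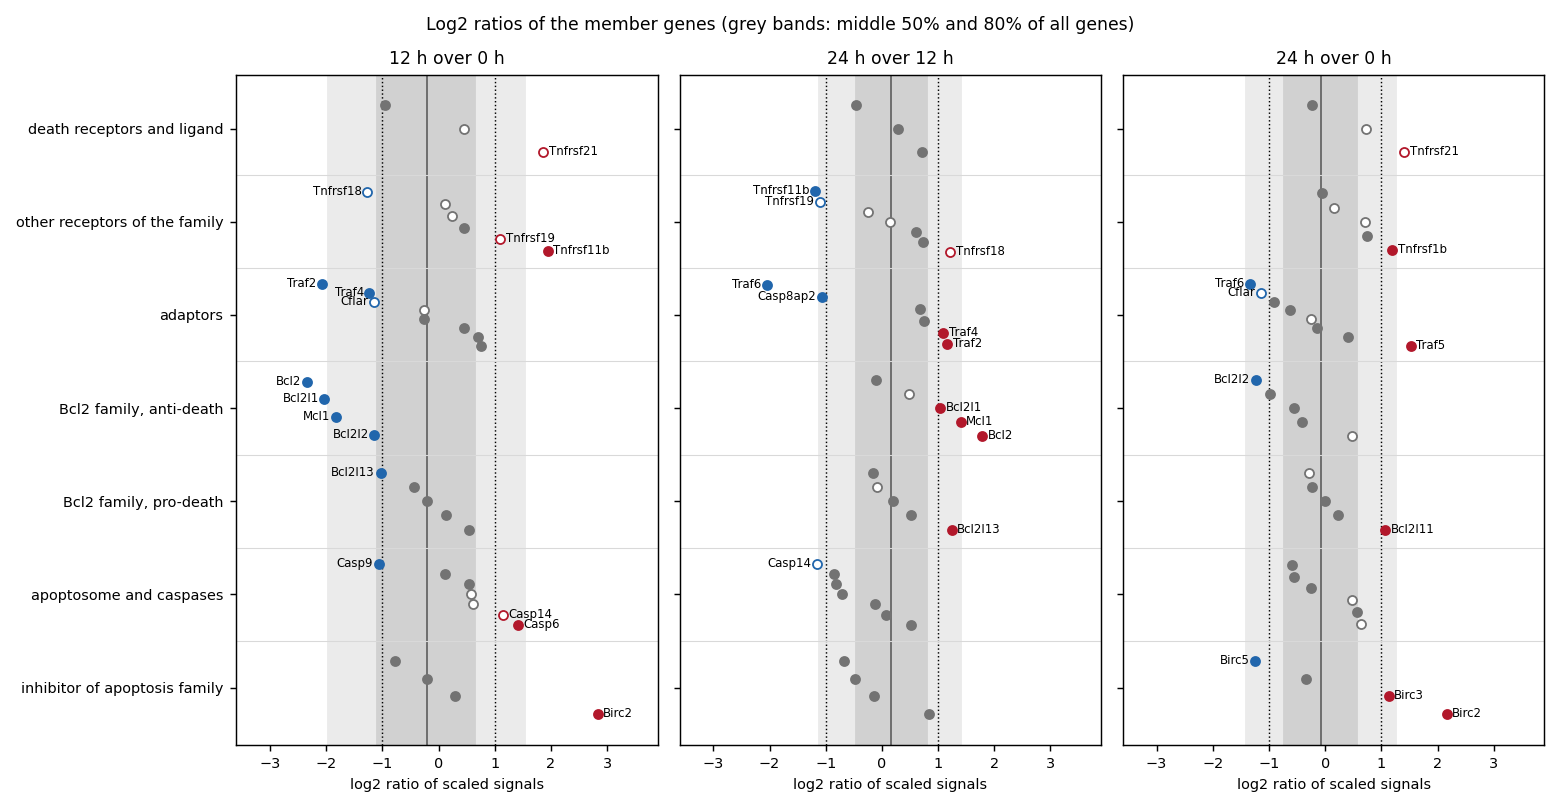
Log2 ratios of scaled signals for the death pathway genes in the 3 comparisons, grouped by role; filled points are measured, open points are bounds, and named points (red higher, blue lower) are at least 2-fold different. Dotted lines mark 2-fold, and grey bands the middle 50% and 80% of all genes around their median. Bcl2, Bcl2l1, Mcl1 and Bcl2l2 lie left of the 2-fold line at 12 h, and Birc2, at 2.83, lies farthest right.

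Apoptosome genes and caspases went both ways at 12 h, when 2 of 7 with a ratio were higher than at 0 h by 2-fold or more and 1 was lower, where 17.7% and 27.3% of all genes were. From 12 h to 24 h 0 of 7 were higher and 1 was lower, where 18.8% and 12.0% of all genes were. Their median log2 ratio was -0.71, beside 0.17 for all genes. At 24 h against 0 h, 0 of 6 passed 2-fold in either direction, where 14.5% of all genes were higher and 17.7% lower. These counts rest on few genes. Casp6, an executioner caspase that cleaves lamins, went from 26.8 to 71.6 and 39.5, 2.67-fold higher at 12 h, with 0.72 on the log2 scale for signals as deposited. Casp14, a caspase of cornifying skin rather than of apoptosis, was above the floor at 12 h alone, at 30.1, at least 2.23-fold over both other arrays. Its log2 ratio at 12 h was 2.84 with the floor at the 20th percentile. Casp8, the initiator downstream of death receptors, was at the floor at 0 h and at 20.6 and 18.8 in culture, at least 1.52-fold and 1.39-fold higher. At that floor the ratios of Casp8 were 1.25 and 1.12. Casp4, an inflammatory caspase, was likewise at the floor at 0 h and at 20.1 and 21.1 later.

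Casp9, the initiator of the apoptosome, was at 57.6, 27.7 and 39.5, 2.08-fold lower at 12 h. Its other measured sets gave ratios of 0.12 and -0.25. The mean over all its sets, which include another under the floor throughout, was -0.30. Without probe sets whose names carry a suffix letter, the brightest set of Casp9 among them, the ratio was 0.12. Centring, quantile normalization and the higher floor put it at -0.60, -0.56 and -0.71. Apaf1, the scaffold of the apoptosome, stayed within 2-fold at 38.2, 56.0 and 31.9, although its log2 ratio for 24 h over 12 h was between -1.13 and -1.07 under the 3 other scalings. Casp2 was at 148, 161 and 98.2, within 2-fold, with log2 ratios for 24 h over 0 h of -0.59 from its brightest set and 0.54 from the other. The sets of Casp2 thus differed in sign between 24 h and 0 h. They shared it in the other comparisons, at 0.12 and 0.92 for 12 h over 0 h and -0.71 and -0.38 for 24 h over 12 h.

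The inhibitor of apoptosis family held the highest measured ratio among members at the floor used here. Birc2, the ubiquitin ligase cIAP1 that binds Traf2 and limits death signalling, read 21.4 at 0 h, 153 at 12 h and 95.9 at 24 h. The cultured tissues exceeded the unfused one by 7.13-fold and 4.47-fold, and both passed 2-fold under all 8 alternatives. A second probe set, whose suffix marks possible cross-hybridization, was at the floor at 0 h and at 68.8 and 76.5 later, which bounds its log2 ratios at 2.35 and 2.50. Both sets were low before culture and high on both cultured arrays. Birc3, the related cIAP2, was at 26.2, 32.1 and 57.5, 2.19-fold higher at 24 h than at 0 h, a log2 ratio of 0.13 with signals as deposited and 0.71 with the higher floor. Birc2 and Birc3 are neighbours in the genome, and their log2 ratios at 12 h were 2.83 and 0.29.

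Birc5, or survivin, is a member of the mitotic chromosome passenger complex and made by dividing cells. Its signals were 123, 71.7 and 51.7, and it was 2.38-fold lower at 24 h than at 0 h, past 2-fold under all 8 alternatives. Birc6, a large ubiquitin-conjugating member, stayed within 2-fold at 51.7, 44.9 and 40.8. The promoters of Birc2 and Birc5 are given because their ratios at 24 h against 0 h, in opposite directions, both held under all alternatives. For Birc2, capitals mark the cyclic AMP response element TGACGTCA, at bases 35 to 28 before the first of its 2 listed starts. This element is present in 1.55% of all windows and, among members, in that of Birc2 alone. For Birc5 they mark the kappaB letters, at bases 44 to 35, which overlap a GC box at bases 48 to 43.
Birc2, chr9:7837058-7837307, minus strand: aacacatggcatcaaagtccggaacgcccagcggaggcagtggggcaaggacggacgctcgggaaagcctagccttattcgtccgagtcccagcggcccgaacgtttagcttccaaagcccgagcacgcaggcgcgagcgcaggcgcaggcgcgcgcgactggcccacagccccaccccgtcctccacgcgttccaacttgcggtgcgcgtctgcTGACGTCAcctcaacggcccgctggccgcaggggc
Birc5, chr11:117848987-117849236, plus strand: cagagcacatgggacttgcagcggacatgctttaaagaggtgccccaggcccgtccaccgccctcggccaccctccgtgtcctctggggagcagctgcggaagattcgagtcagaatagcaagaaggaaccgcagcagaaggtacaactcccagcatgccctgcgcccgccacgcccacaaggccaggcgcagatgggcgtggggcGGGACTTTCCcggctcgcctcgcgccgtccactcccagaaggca
GC boxes occurred in 32.7% of all windows and, with a gene counted if any of its windows matched, in 28 of the 42 member genes. Shares of windows and counts of genes are unlike units here and below. Of the interferon elements, GAAA, any 2 bases and GAAA, and the shorter TTC, any 3 bases and GAA, matches occurred in 2.98% and 7.02% of all windows and in those of 2 and 6 member genes. The shorter one was held by Fas, Casp12, Tnfrsf9, Tnfrsf18, Tnfrsf1a and Tnfrsf1b, and the longer one by Tnfrsf17 and Tnfrsf1b. These genes had no course in common: Tnfrsf18 fell at 12 h, and Casp12 and Tnfrsf9 were under the floor throughout.

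**Figure D3:**
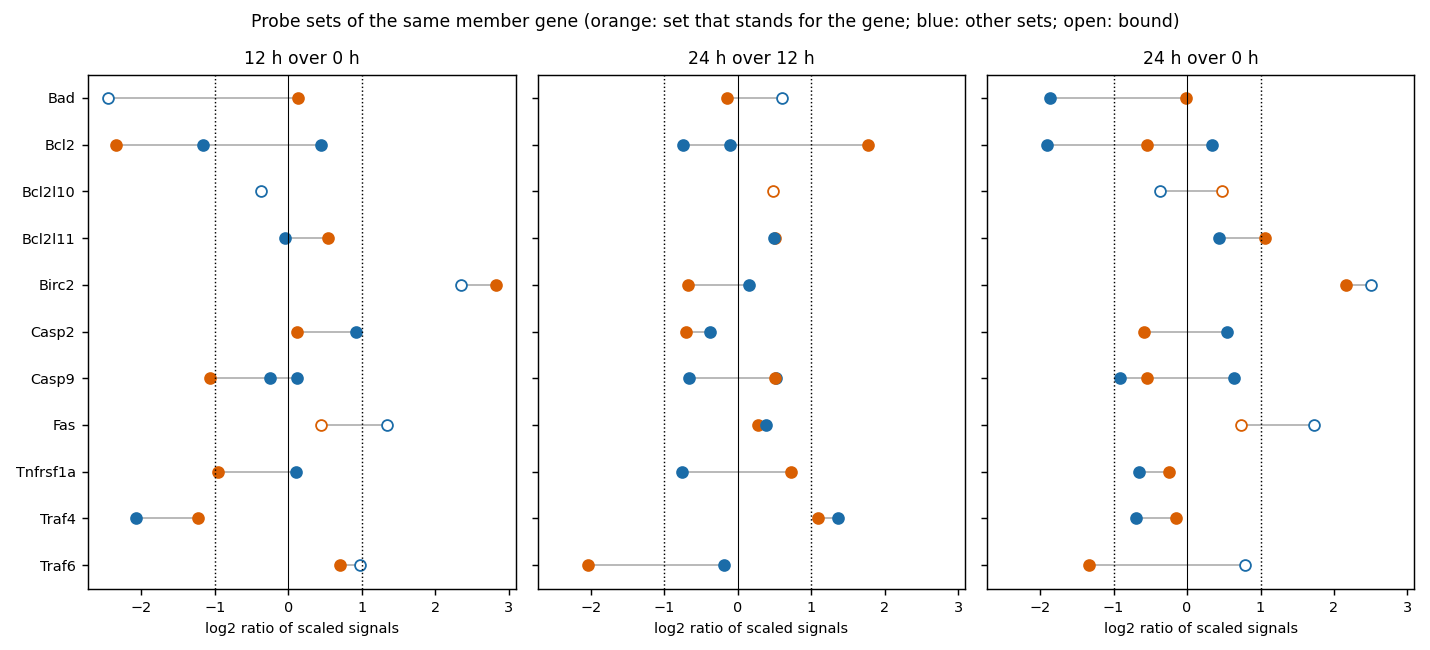
Log2 ratios of every probe set with a ratio, for the 11 member genes with at least 2 sets above the floor on some array; orange points stand for the gene, blue points are its other sets, open points are bounds. Birc2 and Traf4 have all sets on 1 side of 0 from 0 h to 12 h, whereas Bcl2, Casp9 and Bad span it.

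Of the 15 member genes with several probe sets, 11 had at least 2 above the floor on some array, and these give the only internal check. For Birc2 and Traf4 the sets shared a direction and a 2-fold difference at 12 h. For Bcl2, 2 of 3 sets did. For Bad, Casp9 and Tnfrsf1a the other sets gave a different sign or a ratio near 0. The sets of Bcl2l10 differed in sign at 24 h against 0 h, with bounds of 0.48 and -0.37 on the log2 scale.

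A list of 84 further death pathway genes, of which 61 are on the array, served as context. At 12 h, 12 of 47 with a ratio were higher than at 0 h by 2-fold or more and 15 lower, where 17.7% and 27.3% of all genes were, and the median was 0.00. At 24 h against 12 h the counts were 10 and 7 of 49, beside 18.8% and 12.0% of all genes, and at 24 h against 0 h 11 and 8 of 49, beside 14.5% and 17.7%. The groups within this list were formed after the values were seen and are described only. Of 8 genes for mitochondrial proteins, 6 had a ratio at 12 h and 4 were higher, where 17.7% of all genes were. Cycs, cytochrome c, went from 44.0 to 149 and 42.6, 3.40-fold higher and then 3.51-fold lower. Aifm1, the apoptosis-inducing flavoprotein, was at 185, 609 and 276, 3.30-fold higher and then 2.20-fold lower. Bnip3, a mitochondrial protein induced by hypoxia, was at 37.3, 124 and 44.2, and Vdac2, an outer membrane channel that holds Bak1, at 77.2, 496 and 230. The others were Htra2, at 0.04 on the log2 scale and at least as low as -2.78 by its second set, Endog, at -0.11, and Diablo and Vdac1, at the floor on both arrays. Outside that group, Perp, a desmosomal p53 target, was at 177, 718 and 334. Cycs, Aifm1, Bnip3, Vdac2 and Perp were each highest on the 12 h array, on which Mcl1, Bcl2l1 and the brightest set of Bcl2 were lowest. Genes of the opposite role shared these courses: Birc2, which limits death signalling, was highest at 12 h too, at 153. The pro-death member Bcl2l13 and the adaptors Traf2 and Tradd were lowest there, at 34.6, 25.3 and 31.9. The genes set side by side here were picked after the values were seen, and their relation was not tested.

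Tradd, the adaptor of Tnfrsf1a, went from 143 to 31.9 and 57.2, 4.49-fold lower at 12 h, by a single probe set whose name carries a suffix letter. Faf1, a partner of Fas, was 2.67-fold lower at 12 h by its brightest set and higher by a log2 ratio of 1.12 by another. Of 7 listed caspase substrates, a group formed after the values were seen, 5 were lower at 12 h, where 27.3% of all genes were. In the whole list 15 of 47 were lower. Dffa and Rock1 were within 2-fold at -0.64 and -0.65, with second sets lower by a bound of -1.21 and higher by a bound of 1.59. Acin1 went from 209 to the floor and to 34.4, at least 15.5-fold lower at 12 h, and Sptan1 from 143 to the floor and to 66.0, at least 10.6-fold lower. Lmna, a lamin cleaved by Casp6, was at 406, 110 and 709, 3.68-fold lower and then 6.42-fold higher, and its other probe set had ratios of -1.29 and 1.03. Parp1, a DNA repair enzyme and caspase substrate, fell at both steps, from 92.2 to 45.4 and 21.3, and was 4.33-fold lower at 24 h than at 0 h. The only probe set of Parp1 has a suffix that marks possible cross-hybridization.

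Genes of NF-kappaB were mixed. Rela, its main transactivating subunit, was at 232, 37.2 and 175, 6.25-fold lower at 12 h and 4.71-fold higher after it. Nfkbia, its inhibitor and target, was at 95.1, 451 and 596, 6.27-fold higher at 24 h than at 0 h by its brightest probe set, but the other set, at 182, 105 and 127, had a log2 ratio of -0.52. Bag3, a stress-induced co-chaperone, was 14.0-fold higher at 12 h by 1 set, at 16.8 and 235, and had a log2 ratio of -0.62 by the other. Tnfaip3 and Tnf were under the floor on all arrays, as was Xiap, the strongest caspase inhibitor of the Birc family, in all its probe sets.

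**Figure D4:**
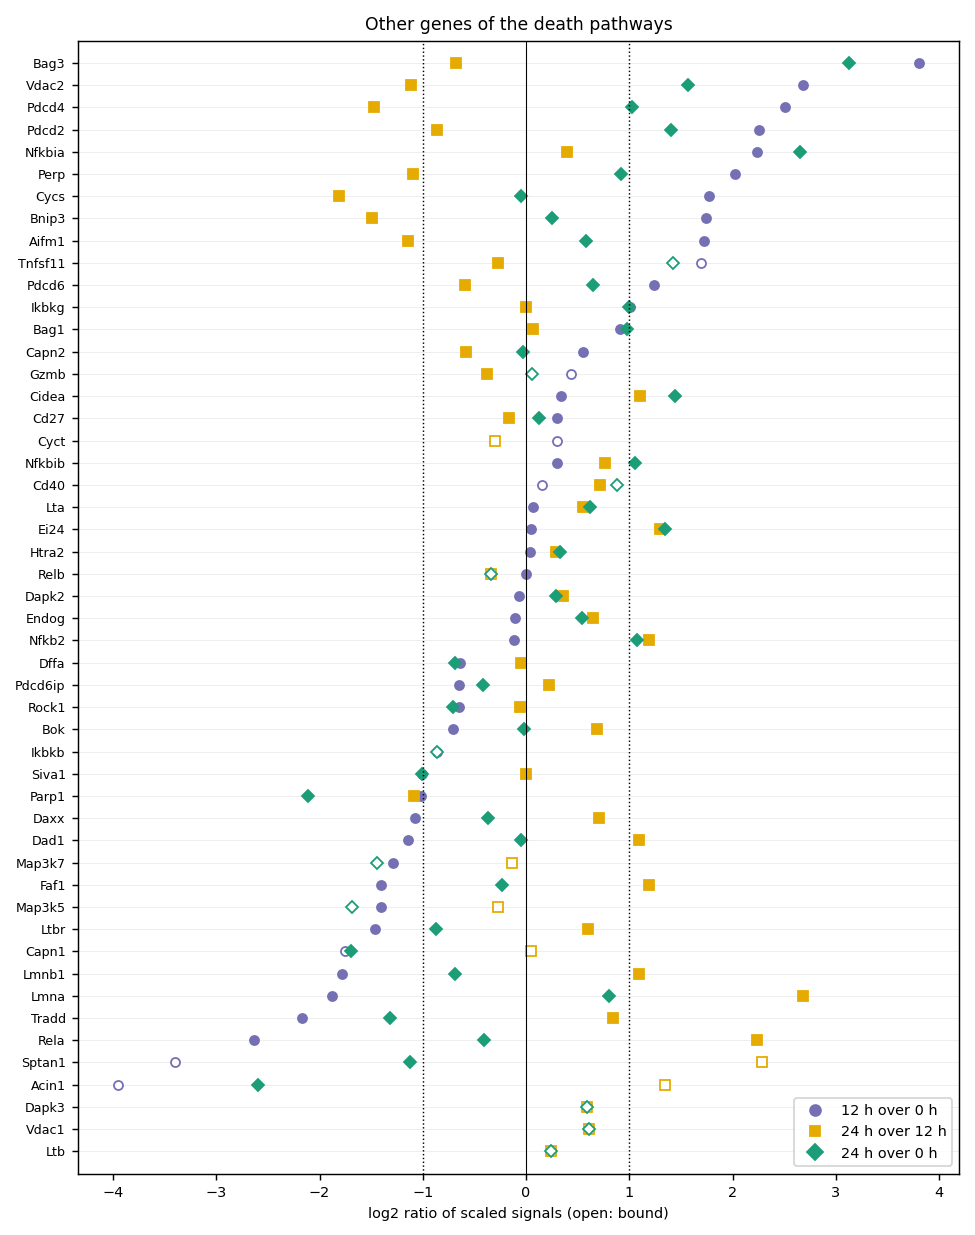
Log2 ratios of scaled signals for the listed death pathway genes outside the members with at least 1 ratio, ordered by 12 h over 0 h; circles are 12 h over 0 h, squares 24 h over 12 h, diamonds 24 h over 0 h, and open symbols are bounds. Cycs, Aifm1, Bnip3 and Vdac2 are right of the 2-fold line at 12 h, and Tradd, Rela, Sptan1 and Acin1 are left of it.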

How the data were processed

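Per the labels, epithelial RNA was amplified with the RiboAmp kit, labelled with the ENZO kit and analysed by the authors with Microarray Suite 5.0 and GeneSpring 6.0, without stating which wrote the values or whether they were scaled. The deposited values are linear intensities with no detection calls, 1 for each probe set and array. Genes were named from the platform's probe annotation: of 12422 non-control probe sets, 10833 name 1 gene, 396 several and 1193 none. Here each array was multiplied to reach the same 2% trimmed mean over non-control probe sets, floored at the pooled 40th percentile and taken to log2 (Python 3.11.15, pandas 2.3.3). A gene at the floor on both arrays has no ratio. With 1 array per group no test was possible: genes at least 2-fold different were counted beside all genes. Precision is limited by having so few arrays. Scaling and flooring were tested on simulated data without noise, with differences planted in bright probe sets. The rule for bounds was tested on a small made-up example. The choice of the brightest probe set was not tested in this way. Members, lists and motifs were chosen with earlier results of these data known. Named were all members above the floor on some array, with the values of those at least 2-fold different and of a fixed core. Alternatives were 3 other scalings, 3 other floors, the mean over probe sets and removal of suffix-marked probe sets, and, added after the data were seen, the control-type probe set for Fas. Promoters are from RefSeq, build GRCm38.p6.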

Additional observations from a re-analysis of the deposited data

How the results depend on the processing

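Counts of members at least 2-fold different depended on scaling and floor. The share of all genes past 2-fold is given after each count. At 12 h against 0 h, the 6 higher members became 10 with the floor at the 20th percentile (19.6%) or without a percentile floor (20.3%) and 3 with the floor at the 60th (18.4%), and the 10 lower ones became 5 after median centring (18.4%) or quantile normalization (20.9%). At 24 h against 12 h, the 7 higher members became 2 with signals as deposited (12.0%) and 3 after median centring (13.0%), after quantile normalization (14.3%) or with the 60th percentile floor (14.9%); the 5 lower ones became 2 with that floor (12.3%) and 3 with the mean over probe sets (9.71%). At 24 h against 0 h, the 6 higher members became 1 with signals as deposited (4.50%), 11 with the 20th percentile floor (16.9%), 3 with the 60th (13.2%) and 12 without a percentile floor (17.9%), and the 4 lower ones became 18 with signals as deposited (49.3%), 2 with the 60th percentile floor (14.9%) and 7 without one (21.3%). Floors act by turning bounds into ratios or ratios into bounds. Calls past 2-fold under all 8 alternatives were those of Birc2 and Tnfrsf11b (higher) and Bcl2, Bcl2l1, Mcl1 and Traf2 (lower) at 12 h, Mcl1 (higher) and Tnfrsf11b (lower) from 12 h to 24 h, and Birc2 (higher), Bcl2l2 and Birc5 (lower) from 0 h to 24 h. Sign changes were followed for 57 values only, those of members at least 2-fold different in the main setting or in the fixed core. Bad at 12 h was not among them. Its log2 ratio of 0.13 became a bound of -2.46 without suffix-marked probe sets, when its other set stands for the gene. Of the 57 values, 6 changed sign under at least 1 alternative, and 1 of these was past 2-fold: Casp9 at 12 h, at 0.12 without suffix-marked probe sets, when another set stands for the gene. The other 5 were within 2-fold: Casp9 at 24 h against 0 h, from -0.55 to 0.64 under the same alternative, Apaf1 at 12 h, from 0.55 to -0.14 with signals as deposited, Fadd at 12 h, from -0.25 to 0.20 after centring and 0.24 after quantile normalization, Fadd at 24 h against 0 h, from 0.41 to -0.59 with signals as deposited, and Fas from 12 h to 24 h, from 0.28 to between -0.03 and -0.01 under the 3 other scalings. Median log2 ratios of the members ranged from -0.54 to 0.47, from -0.12 to 0.17 and from -0.88 to 0.07 in the 3 comparisons, and those of all genes from -0.83 to 0.18, from -0.12 to 0.20 and from -0.98 to 0.08. No paired analysis was possible because each time point had 1 array. Leaving out a replicate was not possible for the same reason. Signals at or near the floor of 13.5 limit, among others, Fas, Casp8, Casp4, Casp14, Cflar, Tnfrsf18, Tnfrsf19, Tnfrsf21, Traf6 and Bid.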

Other observations

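The array holds 3 probe sets that name several genes of the Bcl2a1 family, anti-death relatives of Bcl2 known from blood cells, and these were no members because no single gene can be read from them. The first of them was under the floor on all 3 arrays. The second, which names Mthfs as well, read 18.0, 46.6 and 19.5 in order of time, and the third 19.0, 26.1 and 25.9.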
